A study of Rattus norvegicus with 12 samples.

Results

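The 10 genes described here encode LIM-domain proteins and proteins of the actin stress fibre that smooth muscle cells share with striated muscle. They were chosen by name, with earlier results of these data known, so shares of all genes set beside them are descriptions only. The rows taken were Lmod1, Synpo2, Csrp1, Csrp2, Pdlim3, Pdlim5, Pdlim7, Fhl1, Fhl2 and Palld, and all 10 were found among the 33294 genes counted. Of these, Csrp1, Csrp2, Pdlim3, Pdlim5, Pdlim7, Fhl1 and Fhl2 encode LIM-domain proteins, while Lmod1, Synpo2 and Palld encode actin-binding proteins without a LIM domain. The RNA came from rat PAC1 cells, a pulmonary artery smooth muscle cell (SMC) line, in 12 poly(A) libraries that fall into 4 groups of 3. Differentiated cells with control siRNA (D1) and proliferative cells with control siRNA (P) differed in culture, since PAC1-D cells were passaged 1 time per week at a dilution of 1 in 10 and PAC1-P cells 2 times per week at 1 in 20. In the knockdown groups, PAC1-D cells were depleted of Rbpms (RBPMS KD1) or of Mbnl1 together with Mbnl2 (MBNL KD), so that all 4 groups had received siRNA and transfection reagent. The methods describe all experiments of the study as having independent biological replicates, while the labels do not say what separates the 3 libraries of a group, and the p-values measure the spread between these libraries.

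A LIM domain is a pair of zinc fingers that binds other proteins. LIM proteins of the CSRP, PDLIM and FHL families attach to α-actinin, to other stress fibre proteins or to transcription factors, and several of them move between the cytoskeleton and the nucleus. Leiomodin nucleates actin filaments, while synaptopodin-2 (myopodin) and palladin cross-link or bundle filaments in the dense bodies and focal adhesions of SMCs. Many genes of contractile SMCs are driven by serum response factor with its coactivator myocardin through CArG boxes, and their mRNAs fall when the cells return to a proliferative state. RBPMS and the MBNL proteins are RNA-binding regulators of splicing, and MBNL proteins also act on mRNA stability and localization.

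Across the libraries, between 80842635 and 90771289 counts were assigned to genes. MBNL KD replicate 3 had the lowest total and stood apart from its partners, with a chi-square per degree of freedom over genes of 12.79 and 12.83 against 3.68 to 7.70 for all other pairs of replicates. Leaving it out changed the outcome of the test for 1 member, Csrp2 in MBNL KD, as given with that value. A total of 3 counts, taken here as the limit of detection, corresponds to between 0.0331 and 0.0371 CPM (counts per 1000000 counts of a library), and this limit covers counting error only. Levels are given as CPM after TMM scaling over the 12 libraries, and they are compared only within a gene, because they were not divided by transcript length. The siRNAs left Rbpms at 24.8%, 24.7% and 25.6% of its D1 mean in the 3 RBPMS KD1 libraries, Mbnl1 at 23.6%, 23.6% and 24.1% in MBNL KD and Mbnl2 at 29.1%, 30.1% and 29.8%. Rbpms mRNA itself was at 6.32% of D1 in P and at 83.6% in MBNL KD. The 8 smooth muscle markers Tagln, Cnn1, Acta2, Myocd, Smtn, Myh11, Myl9 and Mylk were detected in every group, with summed levels of 9803 to 10300 CPM in D1, 210.8 to 224.0 in P, 4886 to 5060 in RBPMS KD1 and 7828 to 7944 in MBNL KD. The lists of epithelial, endothelial and leukocyte markers each summed to at most 5.62 CPM in any library, with the endothelial Cdh5 and Kdr and the epithelial Epcam at 0 in all D1, RBPMS KD1 and MBNL KD libraries. The 5 fibroblast markers, which cultured SMCs also express, summed to between 22450 and 32010 CPM, while the 8 striated muscle markers lay between 1.31 and 26.7 CPM. In bulk RNA, fewer cells of a type and less RNA per cell cannot be told apart.

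Together the 10 mRNAs took 0.594% ± 0.0121 of all counts in D1, 0.120% ± 0.00109 in P, 0.445% ± 0.00563 in RBPMS KD1 and 0.523% ± 0.00382 in MBNL KD (SD, n = 3 each). Fhl1 alone made up 0.363% ± 0.00814 of the D1 counts and 0.0330% ± 0.00108 of the P counts. Without Fhl1, the other 9 held 0.231% in D1, 0.0874% in P, 0.171% in RBPMS KD1 and 0.173% in MBNL KD, so that the knockdowns differed in the sum mostly through Fhl1.

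**Figure D1:**
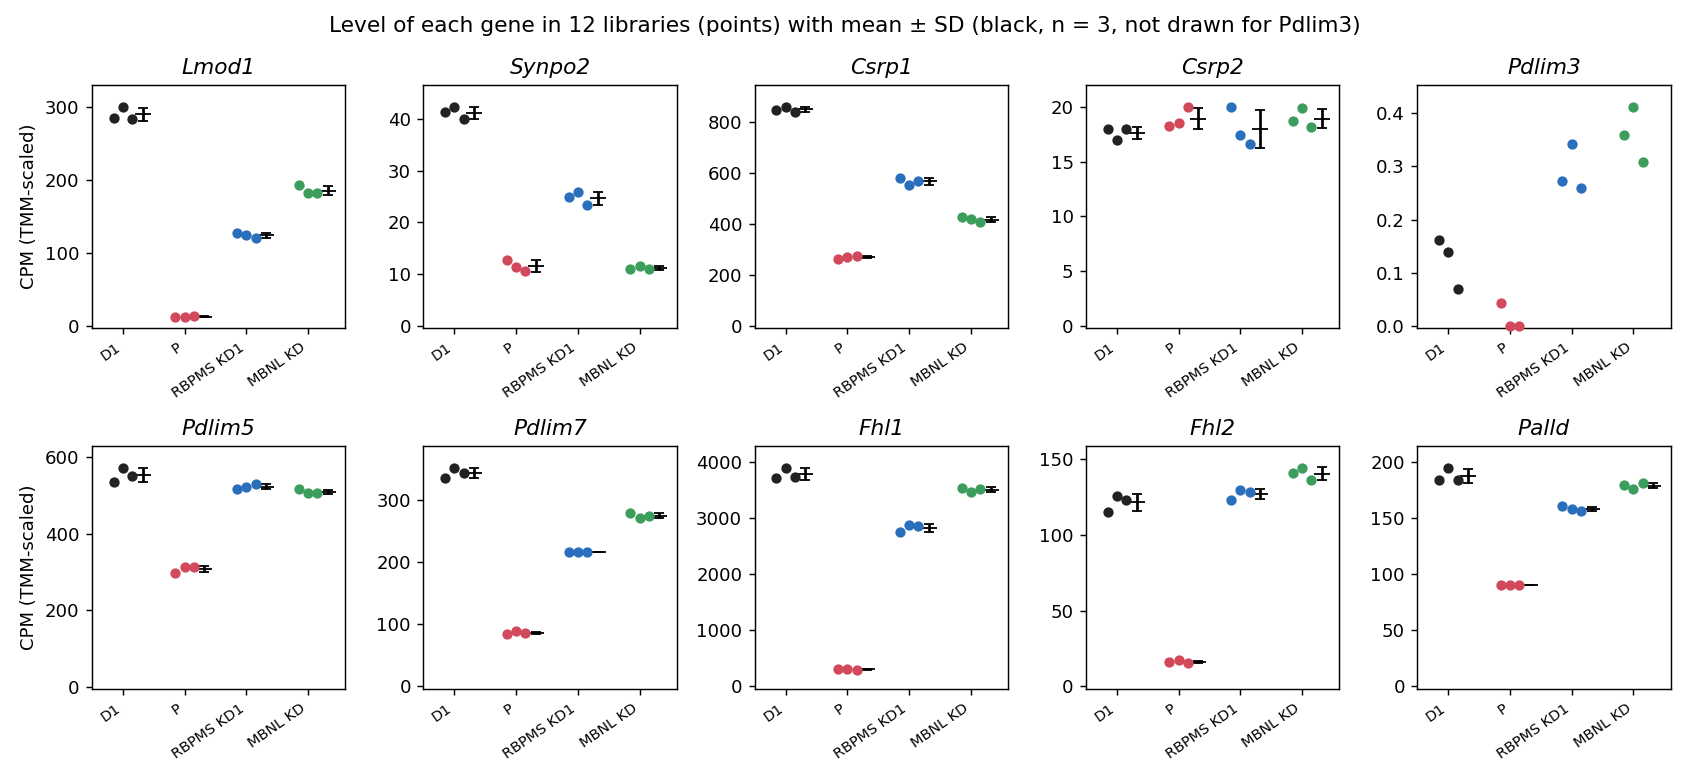
Level of each of the 10 mRNAs in the 12 libraries, in CPM after TMM scaling, with 1 panel per gene and a linear axis from 0; points are libraries and black bars give the mean ± SD of 3 (not drawn for Pdlim3, which had counts of 0). The P libraries lie below all D1 libraries for every gene but Csrp2, the Fhl2 means of both knockdowns lie above that of D1, and Synpo2 is as low in MBNL KD (11.2 CPM) as in P (11.6 CPM).

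The first comparison asked how the 10 mRNAs differ between the proliferative and the differentiated state. Of the 9 that passed the filter on low counts, 8 were lower in P and Csrp2 did not pass the test. The falls ranged from 1.81-fold for Pdlim5 to 23.1-fold for Lmod1. The test was edgeR's quasi-likelihood test on the 6 libraries of a comparison, and a gene passed at a Benjamini-Hochberg adjusted p under 0.05 over all genes tested and was called if its fold was also over 2. The 8 lower genes stand beside 37.6% of all 16814 genes tested that passed in that direction, and the 7 of 9 called lower beside 11.2%. The median log2 fold change (log2FC) of the 9 was -1.84, and that of all genes was 0.02. The summed smooth muscle markers were lower in P as well, by the ranges given above, and their part in these values was not tested. The endothelial markers summed to 0.290 to 0.344 CPM in D1 and 4.59 to 5.62 in P, led by Tek, with 2 of the 5 tested and both called higher. The striated muscle markers summed to 4.11 to 4.54 CPM in D1 and 26.4 to 26.7 in P, led there by Ryr1, with 1 of 4 tested called higher, and 1 of 3 leukocyte markers tested was called higher. The fibroblast markers summed to 24580 to 26690 CPM in P, with 3 of 5 passing as higher and 2 as lower. The part of these lists was not tested either.

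Lmod1, encoding the smooth muscle leiomodin that nucleates actin filaments, had 286, 301 and 284 CPM in the D1 libraries and 12.6, 12.03 and 13.2 CPM in the P libraries. The groups were far apart, and P held 4.34% of the D1 mean. This was the deepest fall among the 10 genes, with a log2FC of -4.53 (SE 0.0349, adjusted p = 1.2e-41, edgeR). Synpo2, which encodes the actin-bundling protein myopodin, had 41.4, 42.4 and 40.0 CPM in D1 and 12.7, 11.3 and 10.6 CPM in P. The groups did not overlap, and 28.0% of the D1 mean was left in P, a log2FC of -1.84 (SE 0.0502, adjusted p = 4.1e-26, edgeR). Palld, encoding palladin, an immunoglobulin-domain scaffold of stress fibres, had 184, 195 and 184 CPM in D1 and 90.7, 90.8 and 90.8 CPM in P. Its fall was the smallest that still passed the fold threshold, at 2.08-fold (log2FC -1.05, SE 0.0274, adjusted p = 9.5e-27, edgeR). A protein-coding gene, Cbr4, overlaps Palld in the RefSeq annotation of a later assembly, and at most 863 counts were assigned to it in any library against at least 8498 for Palld.

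The FHL genes, whose proteins consist almost wholly of LIM domains, fell next most steeply. Fhl1, whose protein binds titin and other sarcomere and stress fibre partners in muscle, had 3711, 3895 and 3726 CPM in D1 and 316, 306 and 298 CPM in P. It thus dropped from the mRNA with the most counts of the 10 to 8.12% of its D1 mean (log2FC -3.63, SE 0.0279, adjusted p = 1.2e-41, edgeR). Fhl2, which encodes a coregulator of serum response factor and other transcription factors, had 115, 126 and 123 CPM in D1 and 16.1, 17.1 and 15.6 CPM in P. P held 13.4% of the D1 mean of Fhl2 (log2FC -2.90, SE 0.0382, adjusted p = 3.3e-35, edgeR).

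Promoter windows were read because the CArG box is the site that serum response factor binds in contractile SMC genes, and RefSeq's windows for assembly GRCr8 (250 bases before to 50 after a start site) held 14 windows for 8 of the 10 genes. Lmod1 and Pdlim3 had no entry. A CArG box, whose pattern reads the same on both strands, was found in 3 of the 14 windows, 1 of Fhl1 and 2 of Fhl2, and 1.64% of all 33469 windows hold it. The TEAD motif CATTCC, searched on both strands with no overlap with a CArG box, was in 1 of the Fhl2 windows and in 1 of Palld, against 14.2% of all windows. The stretches around the CArG boxes are shown because they are the feature by which the FHL genes differ from the other members read here. They run 5′ to 3′ on the gene's strand in lower case, with CArG boxes and the TEAD motif in capitals. A match describes letters in a window and says nothing on binding, and no match says only that these letters are not in this window.
Fhl1, chrX:139638379-139638418, plus strand, box starting 102 bases before the start site: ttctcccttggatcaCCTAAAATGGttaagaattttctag
Fhl2, chr9:52923360-52923399, minus strand, box starting 58 bases before the start site: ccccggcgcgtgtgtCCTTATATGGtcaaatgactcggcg
Fhl2, chr9:52954556-52954650, minus strand, box starting 95 bases and TEAD motif 36 bases before another start site: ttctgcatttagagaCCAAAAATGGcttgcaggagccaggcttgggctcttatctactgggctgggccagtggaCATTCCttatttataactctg

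The cysteine- and glycine-rich genes parted from each other. Csrp1, encoding the CRP1 protein that binds α-actinin and zyxin on stress fibres, had 850, 861 and 843 CPM in D1 and 264, 271 and 273 CPM in P. It was thus 3.17-fold lower in P, with every P library below every D1 library (log2FC -1.67, SE 0.0241, adjusted p = 4.7e-34, edgeR). Csrp2, encoding the related CRP2, had 18.0, 17.0 and 18.0 CPM in D1 and 18.3, 18.6 and 20.0 CPM in P. The P libraries were slightly higher without overlap, but the log2FC of 0.10 did not pass the test (95% confidence interval -0.0042 to 0.20, adjusted p = 0.075, edgeR), and it passed without P replicate 1 (0.13, adjusted p = 0.046) and over genes with at least 10 counts in every library (0.12, adjusted p = 0.033). The interval holds no change as large as that of any other member tested.

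Among the PDZ and LIM genes, the depth of the fall also differed. Pdlim7, encoding enigma, had 334, 352 and 343 CPM in D1 and 84.6, 88.3 and 85.7 CPM in P, a 3.99-fold difference (SE 0.0271 on the log2 scale, adjusted p = 7.7e-35, edgeR). Pdlim5, encoding the enigma homologue ENH, had 536, 573 and 552 CPM in D1 and 298, 313 and 312 CPM in P. The groups did not overlap, and 55.6% of the D1 mean was left in P, short of the fold threshold (log2FC -0.85, SE 0.0266, adjusted p = 1.9e-24, edgeR). Pdlim3, encoding the actinin-associated LIM protein ALP, was near the limit of detection, with 14, 12 and 6 counts in the D1 libraries and 4, 0 and 0 in P. It did not pass the filter on low counts here, and no fold is given.

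**Figure D2:**
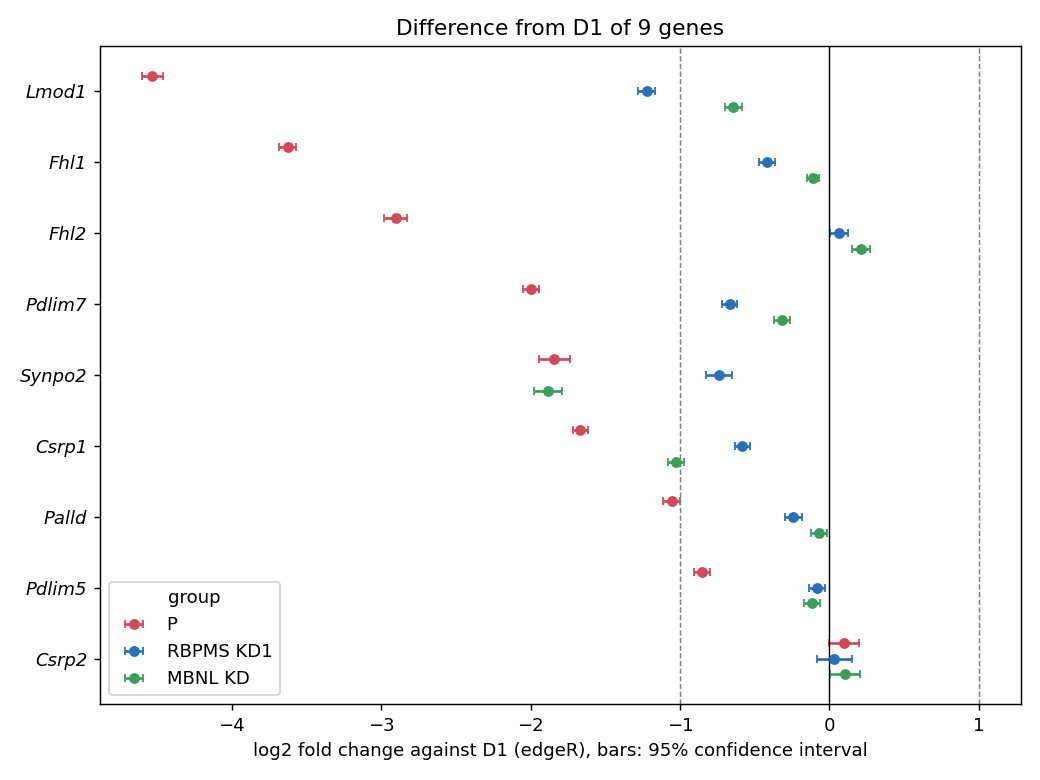
Difference of 9 genes from D1 in P (red), RBPMS KD1 (blue) and MBNL KD (green), as log2 fold change from edgeR on the horizontal axis, with bars for the 95% confidence interval and dashed lines at the fold threshold of 2; Pdlim3 is left out for its low counts. The fall in P is larger than either knockdown's for all genes but Synpo2 and Csrp2, Fhl2 lies left of 0 in P alone, and the knockdowns change places between Lmod1 (lower in RBPMS KD1) and Synpo2 (lower in MBNL KD).

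Knockdown of Rbpms in PAC1-D cells asked which of these mRNAs change when this regulator of the differentiated state is reduced. Of the 10 genes, 7 were lower in RBPMS KD1, Csrp2 and Fhl2 did not pass the test, and the sparse Pdlim3 was higher. Lmod1 was the one gene called lower, by 2.33-fold. Among all 15904 genes tested, 29.5% passed in the lower direction and 29.5% in the higher, while 1.62% were called lower and 3.06% were called higher. Pdlim3 was also called higher, but it was tested only through its knockdown counts, and nothing is read from its call. The median log2FC of the 10 genes was -0.33, against 0.00431 for all genes. The summed smooth muscle markers moved in the same direction, to between 4886 and 5060 CPM. The fibroblast markers summed to 22450 to 23530 CPM in D1 and 30240 to 32010 in RBPMS KD1, with 4 of 5 passing as higher and 1 as lower. The one endothelial marker tested was called higher, and 2 of 3 striated muscle markers tested were called lower. The part of these markers in the members' values was not tested.

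Lmod1 had 127, 125 and 121 CPM in the RBPMS KD1 libraries, all below the lowest D1 library, which is 42.8% of the D1 mean (log2FC -1.22, SE 0.0281, adjusted p = 1e-23, edgeR). Synpo2 had 24.9, 25.9 and 23.4 CPM, or 59.9% of D1 (log2FC -0.74, SE 0.0417, adjusted p = 5.5e-15, edgeR). Both of these actin-binding genes thus fell in RBPMS KD1, but neither reached its P level. Palld had 161, 158 and 157 CPM, a smaller step that still separated the groups (log2FC -0.24, SE 0.0274, adjusted p = 1.1e-08, edgeR).

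Of the LIM-domain genes, Pdlim7 was lowered most in RBPMS KD1, to 216, 216 and 215 CPM (log2FC -0.67, SE 0.0253, adjusted p = 6.7e-19, edgeR). Csrp1 had 581, 555 and 567 CPM, 66.7% of the D1 mean (log2FC -0.58, SE 0.0247, adjusted p = 8.1e-18, edgeR). Fhl1 had 2747, 2874 and 2848 CPM, 74.7% of the D1 mean (log2FC -0.42, SE 0.0258, adjusted p = 3.8e-14, edgeR). These genes thus came to lie between D1 and P, and on the log2 scale nearer to D1.

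Pdlim5, Fhl2 and Csrp2 stayed close to D1 in RBPMS KD1, and Pdlim3 was higher at low counts. Pdlim5 had 517, 521 and 529 CPM, a log2FC of -0.08 (SE 0.0259, adjusted p = 0.008, edgeR) that was 0.0023 under quantile normalization (adjusted p = 0.94) and that did not pass without D1 replicate 2 (adjusted p = 0.067). Fhl2 had 123, 129 and 128 CPM and overlapped with D1, with a log2FC of 0.07 (95% confidence interval 0.0021 to 0.13, adjusted p = 0.07, edgeR), an interval that holds no fall. Fhl2 passed as higher under quantile normalization (0.13, adjusted p = 0.001), with limma on the normalised values (0.14, adjusted p = 0.017), in a fit with a replicate block (0.07, adjusted p = 0.028), without D1 replicate 2 (0.09, adjusted p = 0.021) and without RBPMS KD1 replicate 1 (0.09, adjusted p = 0.024). Csrp2 had 20.0, 17.5 and 16.7 CPM, a log2FC of 0.03 (95% confidence interval -0.084 to 0.15, adjusted p = 0.64, edgeR). Pdlim3 had 24, 30 and 23 counts against 14, 12 and 6 in D1, and it passed the filter only through the knockdown group. Its log2FC of 1.24 (SE 0.413, adjusted p = 0.012, edgeR) did not pass without D1 replicate 3 (0.95, adjusted p = 0.079) or without RBPMS KD1 replicate 2 (1.11, adjusted p = 0.056), and with limma on the normalised values it was 0.41, short of the fold threshold.

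In MBNL KD, Synpo2 and Csrp1 were the members lowered most. Synpo2 fell 3.69-fold and Csrp1 2.04-fold, Lmod1 fell by less than in RBPMS KD1, and the other members tested lay within 1.25-fold of D1 except Pdlim3. Of the 10 genes tested, 7 passed as lower and Fhl2 and Pdlim3 as higher, where 33.7% of all 16053 genes passed as lower and 33.8% as higher. Synpo2 and Csrp1 were called lower, where 4.14% of genes were, and 6.10% of genes were called higher. Pdlim3 was called higher too, but passed the filter on low counts only through the group where it is high, and nothing is read from its call. The median log2FC of the 10 was -0.11. The summed smooth muscle markers were at 7828 to 7944 CPM, nearer to D1 than in RBPMS KD1. Of the 5 fibroblast markers 2 passed as higher and 3 as lower with 1 of these called, 1 of 2 leukocyte markers tested was called higher, and of 5 striated muscle markers tested 2 were called higher and 1 lower. The part of these markers in the members' values was not tested.

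Synpo2 had 11.1, 11.6 and 10.9 CPM in the MBNL KD libraries, all of them below all D1 libraries (log2FC -1.88, SE 0.045, adjusted p = 7e-25, edgeR). These values overlapped with the 10.6 to 12.7 CPM of the P libraries, and the direct comparison of P with MBNL KD gave a log2FC of 0.01 (95% confidence interval -0.12 to 0.15, adjusted p = 0.86, edgeR). Csrp1 had 427, 420 and 406 CPM, 49.1% of the D1 mean (log2FC -1.03, SE 0.025, adjusted p = 1e-24, edgeR). It lay close to the fold threshold and was short of it under quantile normalization (-0.92) and with limma on the normalised values (-0.90). Lmod1 had 193, 182 and 182 CPM, 64.0% of the D1 mean, again without overlap (log2FC -0.64, SE 0.0279, adjusted p = 1.8e-18, edgeR).

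Pdlim7 had 279, 271 and 274 CPM in MBNL KD, 80.1% of D1 (log2FC -0.32, SE 0.0259, adjusted p = 4.3e-12, edgeR). Fhl1 had 3541, 3460 and 3506 CPM, 92.7% of D1 (log2FC -0.11, SE 0.0191, adjusted p = 1.2e-05, edgeR). Pdlim5, at 516, 507 and 507 CPM, had a log2FC of -0.12 (adjusted p = 0.00027, edgeR), and Palld, at 180, 177 and 181 CPM, one of -0.07 (adjusted p = 0.024, edgeR). Neither of the last pair passed under quantile normalization (adjusted p = 0.18 and 0.65) or with limma on the normalised values (adjusted p = 0.27 and 0.7), and Palld also missed the threshold over genes with at least 10 counts in every library (adjusted p = 0.052), without D1 replicate 2 (adjusted p = 0.09) or without MBNL KD replicate 2 (adjusted p = 0.088).

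Fhl2 was the one well-counted member that rose, from 115, 126 and 123 CPM in D1 to 141, 144 and 136 CPM in MBNL KD. All MBNL KD libraries lay above all D1 libraries (log2FC 0.21, SE 0.028, adjusted p = 9.2e-08, edgeR). Pdlim3 had 32, 37 and 25 counts, more than in any D1 library (log2FC 1.54, SE 0.402, adjusted p = 0.0012, edgeR), but it passed the filter only through the knockdown group, and the fold was below the threshold with limma on the normalised values (log2FC 0.49). Csrp2 had 18.7, 19.9 and 18.2 CPM, with a log2FC of 0.11 (95% confidence interval 0.0019 to 0.21, adjusted p = 0.067, edgeR). Csrp2 passed as higher in MBNL KD without replicate 3 of that group (0.13, adjusted p = 0.035), under quantile normalization (0.14, adjusted p = 0.016), with limma on the normalised values (0.14, adjusted p = 0.034) and over genes with at least 10 counts in every library (0.11, adjusted p = 0.045).

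The knockdowns were then compared with each other without the D1 libraries, which both comparisons above share. Of the 10 genes, 7 passed, beside 69.5% of the 16111 genes tested, and Synpo2 alone was called, beside 11.9%. Synpo2 was 2.22-fold lower in MBNL KD than in RBPMS KD1 (log2FC -1.15, SE 0.0536, adjusted p = 5.8e-18), and Csrp1 was also lower there (log2FC -0.45, SE 0.0269, adjusted p = 2.8e-15, edgeR). The other 5 were higher in MBNL KD. Lmod1 led them with a log2FC of 0.57 (SE 0.0267, adjusted p = 4.9e-18), before Pdlim7 at 0.34, Fhl1 at 0.31, Palld at 0.17 and Fhl2 at 0.14 (largest adjusted p of these 4 = 2.4e-05, edgeR). Lmod1 and Synpo2 thus had opposite orders in the 2 knockdowns. For Csrp2, Pdlim3 and Pdlim5 the difference did not pass, with 95% confidence intervals of -0.053 to 0.19, -0.37 to 0.97 and -0.091 to 0.013.

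Ordered by mean level, Lmod1, Pdlim7, Fhl1 and Palld ran from D1 through MBNL KD and RBPMS KD1 down to P. Every step of these 4 orders passed the test. The smallest was that of Palld from D1 to MBNL KD, which did not pass in several alternatives given above. Csrp1 ran from D1 through RBPMS KD1 and MBNL KD to P, with each step past the test. For Pdlim5 the middle step did not pass, and the step from D1 to RBPMS KD1 did not pass in alternatives given above. Synpo2 ran from D1 to RBPMS KD1 and then to P and MBNL KD, which did not differ beyond their spread. Fhl2 was highest in MBNL KD, with RBPMS KD1 and D1 not told apart and P far below. For Csrp2, none of the 3 neighbouring steps passed, and its group means ran only from 17.6 to 18.9 CPM.

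The P libraries were also set directly against each knockdown. Against RBPMS KD1, P had log2FC values of -3.33 for Lmod1, -3.23 for Fhl1 and -2.99 for Fhl2, and against MBNL KD they were -3.92, -3.55 and -3.14 (largest adjusted p of these 6 = 2.5e-34, edgeR). So Fhl1 and Fhl2 kept most of their distance from P in both knockdowns. Pdlim7 was 2.56-fold lower in P than in RBPMS KD1 and 3.27-fold lower than in MBNL KD. Pdlim3 passed the filter through the knockdown groups alone, lost both calls with limma on the normalised values (-0.80 and -0.87), and is left out of the counts that follow. Of the other 9 genes, 6 were called against RBPMS KD1, all lower in P, where 29.1% of all genes were called in either direction. Against MBNL KD 5 were called, again lower in P, where 32.9% of all genes were called. Csrp1 was short of the fold threshold against RBPMS KD1 under quantile normalization (-0.96) and with limma on the normalised values (-0.99). Palld, at -1.02 against MBNL KD, fell short of it in a fit of all 12 libraries (-0.985), with limma (-0.996) and over genes with at least 10 counts in every library (-0.998).

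Ratios of counts within a library do not depend on how libraries were scaled, and they were formed for pairs of related members. With 3 libraries against 3, a two-sided exact permutation test cannot go below p = 0.1, which all but 1 of the 15 ratio tests reached, with an adjusted p of 0.107 over the 15. The exception was Pdlim3 to Pdlim7 in P (exact p = 0.4), where P libraries had Pdlim3 counts of 0. So these ratios could not pass a threshold of 0.05, and they are given as values.

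The ratio of Csrp1 to Csrp2 counts was 47.3, 50.8 and 46.8 in D1, 14.5, 14.6 and 13.6 in P, 31.6 ± 2.50 in RBPMS KD1 and 22.1 ± 0.874 in MBNL KD (SD, n = 3). It was lower than in D1 in all 9 other libraries, through Csrp1 and not Csrp2. For Fhl1 to Fhl2 the ratio was 31.2 ± 0.957 in D1, 18.9 ± 0.909 in P, 22.3 ± 0.0709 in RBPMS KD1 and 24.98 ± 0.927 in MBNL KD. Both genes fell in P, and Fhl1 fell further. Pdlim5 to Pdlim7 rose from 1.61 in D1 to 3.57 in P, 2.42 in RBPMS KD1 and 1.86 in MBNL KD, again without overlap with D1.

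Lmod1 to Synpo2 showed the widest range of the ratios without Pdlim3 when group means are compared as folds. There were 7.03 ± 0.11 Lmod1 counts for each Synpo2 count in D1, 1.096 ± 0.128 in P, 5.04 ± 0.178 in RBPMS KD1 and 16.6 ± 0.848 in MBNL KD. The MBNL KD libraries were thus above D1 while P and RBPMS KD1 libraries were below it, with the groups apart in every case.

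**Figure D3:**
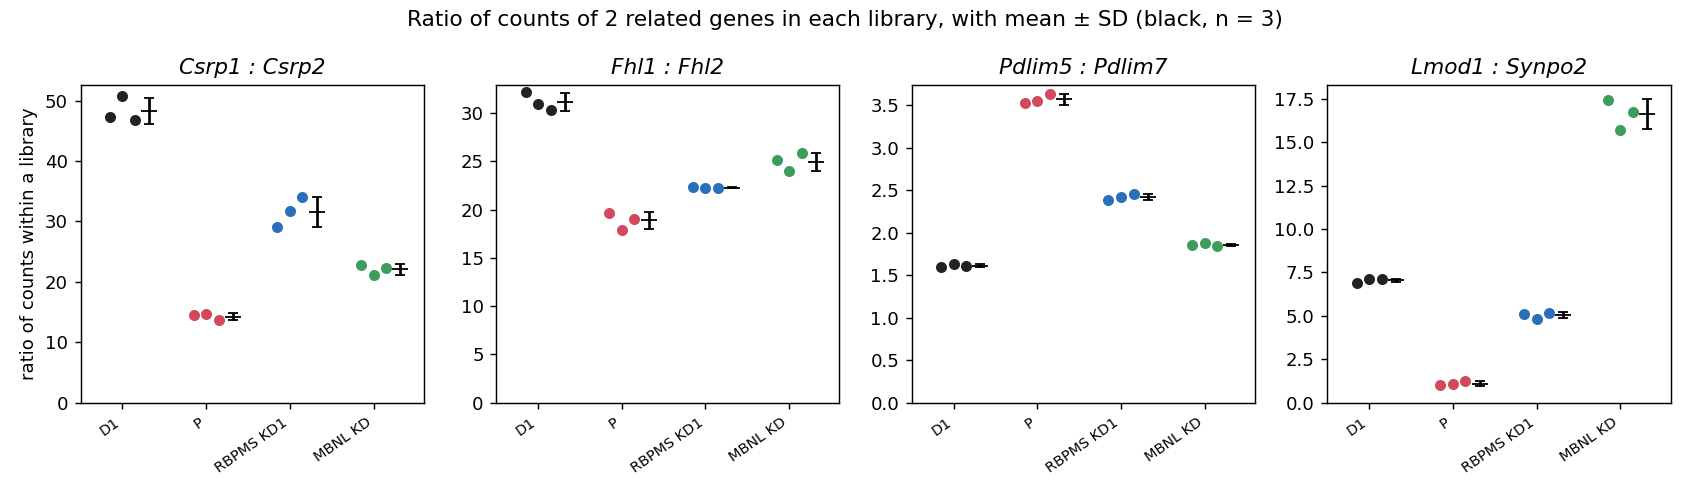
Ratio of counts of 2 related members within each library, by group, on linear axes from 0; points are libraries and black bars the mean ± SD of 3. Csrp1 to Csrp2 and Fhl1 to Fhl2 are highest in D1, Pdlim5 to Pdlim7 is highest in P (3.57), and Lmod1 to Synpo2 is lowest in P (1.096) and highest in MBNL KD (16.6).

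The members were set beside other genes of the same families, all of which were in the count table. Of 37 other LIM-domain genes, 33 were tested in P, of which 21 passed as lower and 11 as higher, with a median log2FC of -0.26. Among them 11 were called lower and 4 higher. Of these 4, Nebl had 0 CPM in D1 and 0.245 CPM in P and passed the filter only through P. Over all genes, 40.4% passed as higher in P and 16.4% were called higher. Of 26 other leiomodin, synaptopodin, palladin and stress fibre genes, 23 were tested in P, with 17 lower, 4 higher and a median of -0.97. Here 11 were called lower and 2 higher, and those 2 were under 1 CPM in both groups and passed the filter only through P. The 9 members tested had a lower median in P (-1.84) than either list, a difference that was not tested.

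Nexn, encoding the actin-binding protein nexilin, fell most of the other genes in P, from 142 ± 3.99 to 5.10 ± 0.353 CPM, a log2FC of -4.80 (SE 0.042, adjusted p = 4.3e-40, edgeR) that is close to that of Lmod1. Synpo2l, the paralogue of Synpo2, fell from 3.00 to 0.256 CPM (log2FC -3.55). Of the LIM-domain genes, Limch1 (-2.80), Tgfb1i1, encoding the focal adhesion protein Hic-5 (-2.78), and Lims2, encoding PINCH2 (-2.27), were the lowest. Higher in P were Lima1 (1.39), Pdlim4 (1.305) and Ablim1 (1.23), of which Pdlim4 reached just 1.97 CPM.

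In RBPMS KD1, 3 of the relatives were called, beside 4.68% of all genes called in either direction. Of 32 other LIM-domain genes tested, 11 were higher and 13 lower, and only Lima1 was called. Of 22 genes tested in the stress fibre list, 2 were higher and 9 lower, with Nexn (-1.45) and Evl (-1.03), an actin polymerase at focal adhesions, called lower. Nexn thus fell in RBPMS KD1 as Lmod1 did, but in MBNL KD it was higher than in D1, at 177 ± 6.57 CPM (log2FC 0.32, SE 0.0267, adjusted p = 1e-11, edgeR).

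Lima1, encoding the LIM-domain actin bundler EPLIN, ran against the members. It had 103, 99.98 and 102 CPM in D1, 273, 264 and 268 in P, 271, 279 and 276 in RBPMS KD1 and 260, 244 and 246 in MBNL KD. It was called higher in all 3 comparisons, which share the D1 libraries, with log2FC values of 1.39, 1.43 and 1.29 (SE 0.0257, 0.0262 and 0.0264, largest adjusted p = 1.6e-25, edgeR). Leaving aside Pdlim3, which had at most 37 counts in a library, no member rose by as much.

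In MBNL KD the relatives went both ways, as did all genes by the shares given above. Of 34 other LIM-domain genes tested, 12 were higher and 19 lower, with 4 called higher and 3 lower. Of 23 in the stress fibre list 10 were higher and 10 lower, with 5 called higher and 2 lower. Of those called higher, Fhl5, Csrp3, Lmod2 and Lmod3 passed the filter only through MBNL KD, and nothing is read from their calls. Of all genes, 6.10% were called higher and 4.14% lower. Pdlim1, a relative of the Pdlim members, fell from 186 ± 2.74 to 44.9 ± 2.08 CPM (log2FC -2.05, SE 0.0283, adjusted p = 1.7e-30, edgeR), below its P level of 62.1 CPM. Crip2 (-1.56) and Mical2 (-1.07) were the other LIM-domain genes called lower, and Sorbs3, encoding vinexin (-1.34), and Tln1, encoding talin-1 (-1.02), those of the stress fibre list. Crip2 was at 91.5 CPM in MBNL KD but at 295 CPM in P against 271 CPM in D1.

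Xirp1, Lmod3 and Tmod2 were the stress fibre relatives with the largest rises in MBNL KD among those at 1 CPM or more. Xirp1, encoding an actin-binding protein of intercalated discs and muscle attachments, had 1.38, 1.17 and 1.38 CPM in D1 and 8.99, 9.05 and 8.87 CPM in MBNL KD (log2FC 2.78, SE 0.0965, adjusted p = 7.6e-21, edgeR). Lmod3, the skeletal muscle leiomodin, had 16, 4 and 12 counts in D1 and 141, 121 and 144 in MBNL KD (log2FC 3.66, SE 0.293, adjusted p = 3.3e-12, edgeR). Lmod3 had 85, 76 and 88 counts in P (log2FC 2.83) but passed the filter there only through P, and nothing is read from that call. Xirp1 was called lower in P (-1.81). Tmod2, a tropomodulin, had a log2FC of 1.53 in MBNL KD. Chosen after their values were seen, Synpo2l rose to 8.20 CPM (log2FC 1.45), Fhl5 had 77, 60 and 63 counts against 4, 6 and 0 in D1, and Lmod2, the cardiac leiomodin, had 28, 27 and 16 counts against 0, 0 and 2. Lmod3, Fhl5 and Lmod2 had too few counts in D1 and passed the filter of this comparison only through MBNL KD, so their folds are descriptions. Synpo, the relative of Synpo2 with more counts, was lower in MBNL KD (log2FC -0.67), and Tmod4 did not pass (-0.30). The striated muscle markers summed to 9.36 to 10.8 CPM in MBNL KD and 4.11 to 4.54 in D1, led by Tnnt2, and to 26.4 to 26.7 CPM in P, led by Ryr1. Of the 5 tested in MBNL KD, 2 were called higher and 1 lower, Myh1 was at 0 in all of these groups, and their part in these values was not tested.

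**Figure D4:**
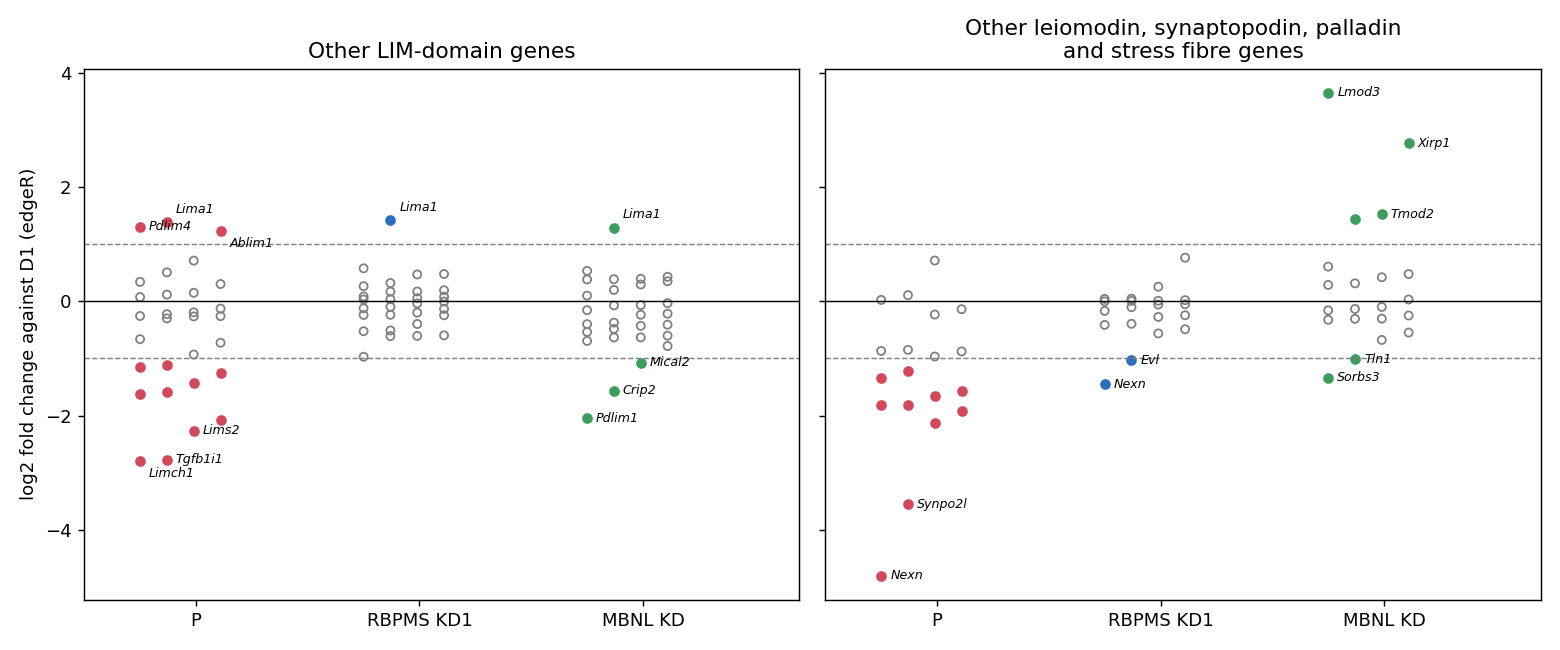
log2 fold change against D1 (edgeR, vertical axis) of other LIM-domain genes (left) and other leiomodin, synaptopodin, palladin and stress fibre genes (right) in P, RBPMS KD1 and MBNL KD, for genes tested and at 1 CPM or more in 1 of the groups compared (2 genes not reported here are left out). Filled points were called, open points were not, dashed lines mark the fold threshold and points are spread sideways only to be seen; Lima1 is high in all 3 comparisons, Nexn lowest in P (-4.80), and Lmod3 (3.66) and Xirp1 (2.78) highest in MBNL KD.

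To place each member among all genes, the gene whose 3 log2FC values lay nearest to its own was found over 9333 genes with at least 10 CPM in D1, as the root-mean-square difference of the log2FC values over the 3 comparisons with D1. Lmod1 was nearest to Myl9, the smooth muscle myosin light chain, at a difference of 0.187. For Fhl1 the nearest gene was Ppp1r14a, encoding the smooth muscle inhibitor of myosin phosphatase CPI-17, at 0.108, and for Pdlim7 it was Dtna, encoding dystrobrevin α, at 0.0736. Csrp1 lay nearest to Angpt2 (0.0772), Fhl2 to Raph1 (0.06) and Synpo2 to Nacc2 (0.244). Palld, Pdlim5 and Csrp2, whose values were nearer to 0 where many genes lie, had neighbours at 0.0101 (Bysl), 0.0251 (Pir) and 0.0168 (Clcc1). Between the members themselves, Pdlim5 and Palld were the nearest pair at 0.151, and Lmod1 and Csrp2 the farthest at 2.8.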

How the data were processed

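Poly(A) RNA of 12 PAC1 libraries was sequenced, and the groups were taken from the sample labels. According to the methods, the authors took an equal number of reads from each sample, mapped these to mRatBN7.2 using STAR, and obtained counts per gene from featureCounts. The submitters' notes name STAR 2.7.11b. The deposited counts are not normalised. The authors' deposited normalised table holds signal values on a linear scale after noise correction and quantile normalization, with a smallest value of 35, and was used for an alternative only. Neither the counting of mates nor the strand setting was found in the sources used here, so that overlapping genes are not told apart. Low even counts were a median of 2.2 times as frequent as odd ones, so a count may be of a single mate, and low counts and the limit of 3 may stand for fewer fragments than they number. Counts halved were an alternative.

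Counts were tested by edgeR 4.0.16 under R 4.3.3 (filterByExpr, TMM, quasi-likelihood F test, no block) on the 6 libraries concerned, with Benjamini-Hochberg adjustment over all genes tested. Called means a fold over 2 in either direction with an adjusted p under 0.05, the thresholds of the methods. SEs were obtained as log2 fold change over the root of F. DESeq2 1.42.0 and limma 3.58.1 served for alternatives, and Python 3.11.15 with scipy 1.17.1 for ratios and exact tests. On simulated counts of the P and D1 libraries (16814 genes), 96 of 100 genes changed 2-fold and 97 of 100 changed 4-fold passed, with 11 unchanged genes passing. For RBPMS KD1 (15904 genes) these were 95, 98 and 12, and for MBNL KD (16053 genes) 93, 99 and 13. The simulation gave all genes the same dispersion and changed far fewer of them than passed in these data. It therefore checks the code and does not measure the error rate here. The members and gene lists were chosen with earlier results of these data known. Named besides all members were the siRNA targets, each member's nearest gene, and from each list up to 3 called genes in each direction per comparison with D1 with at least 1 CPM in the higher group, of which 2 are not reported here. Total counts were 80842635 to 90771289 per library, and intervals on single counts cover counting error only. Promoter windows came from RefSeq, assembly GRCr8. Splicing was not analysed here, and columns of no sample numbered 0.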

Additional observations from a re-analysis of the deposited data

How the results depend on the processing

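The 10 members and 3 siRNA targets were followed through 6 comparisons, the named relatives through those with D1, and levels and ratios were recomputed too. Of 2417 values recomputed under the alternatives, 2367 kept their direction and side of the threshold, or for counts and levels stayed near the value reported. For P against D1, 2933 genes were called with at least 10 counts in every library, against 4641, and for P against RBPMS KD1 3154 against 4914, where fewer genes were tested. With limma on the authors' normalised values, RBPMS KD1 had 209 calls against 745, MBNL KD had 784 against 1643, and MBNL KD against RBPMS KD1 had 1050 against 1920. The cause was not tested. Members called in RBPMS KD1 were 1 with at least 10 counts in every library and 1 with limma, against 2. In MBNL KD 1 was called with limma, against 3. The 2 and the 3 each include Pdlim3, from whose calls nothing is read. Pdlim3 was not called in any of these settings, and Csrp1 lost its call in MBNL KD with limma. With counts halved, 4063 genes were called in P, 586 in RBPMS KD1 and 1386 in MBNL KD. The members called were 7, 2 and 3 as reported, with Pdlim3 again among the 2 and the 3.

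Leaving out 1 library at a time, between 1 and 2 members were called in RBPMS KD1, 1 without D1 replicate 3 or without RBPMS KD1 replicate 2, where Pdlim3 lost its call. Pdlim5 in RBPMS KD1 turned to 0.0023 under quantile normalization and 0.0027 with limma on the normalised values. The log2 ratio of Pdlim3 to Pdlim7 in P against D1 was -1.46 from counts and 1.53 from the normalised values, in which no value is below 35. The cause of the Pdlim5 change was not tested.

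Replicates are not described as paired, and deviations of same-numbered libraries had correlations between -0.033 and 0.020. With the replicate number as a block, 4593 genes were called in P, 730 in RBPMS KD1 and 1634 in MBNL KD. The members called were 7, 2 and 3, with Pdlim3 among the 2 and the 3. In 5 of the 6 comparisons 2 of 6 libraries correlated best with their own number, and 0 of 6 for P against MBNL KD. Depth limits what can be said of Pdlim3, with at most 37 counts in a library.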
